A study of Mus musculus with 14 samples.

Results

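The genes described here are the protein-coding mouse genes whose symbols begin with Eif, leaving out Eif5a and Eif5a2. The rule found 54 genes among the 21887 protein-coding genes of the mm10 gene table. They encode the factors that start protein synthesis, together with kinases and binding proteins that restrain them. Livers came from YAP mice, which carry a doxycycline-inducible transgene for the transcriptional co-activator YAP, and from wild-type mice (WT), all of the C57BL/6 strain. Doxycycline at 50 mg/L in drinking water for 10 days is given in the labels of every sample, and whether WT mice drank it is not stated. The labels name neither the promoter that drives the transgene nor the cells that express it, and give no age or sex. Chromatin of liver was immunoprecipitated for dimethylated lysine 4 of histone H3 (H3K4me2), its monomethylated form (H3K4me1), and LSD1, the demethylase that removes both. There were 2 replicates for each antibody and genotype, 12 antibody libraries in all, with 1 input library per genotype.

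Initiation begins when eIF2 carries the initiator methionyl-tRNA to the small ribosomal subunit, with eIF1, eIF1A and the many-subunit eIF3 keeping the subunit open for scanning. The eIF4F complex, made of the cap-binding protein eIF4E, the helicase eIF4A and the scaffold eIF4G, brings that subunit to the mRNA. Kinases slow the cycle by phosphorylating eIF2, which then blocks its own exchange factor eIF2B, and 4E-binding proteins hold eIF4E until mTORC1 phosphorylates them. H3K4me2 marks active promoters and enhancers, and H3K4me1 is typical of enhancers.

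The values are 6 lists of enriched regions, 1 per antibody and genotype, and each list stands for both replicates. No spread between replicates can therefore be computed, no test was possible, and the read depth is unknown. Differences below are differences between lists. The lists held 51676 H3K4me2 regions in YAP and 54219 in WT, and after joining overlapping regions 2949 and 1500 LSD1 regions. The liver label was checked on 8 hepatocyte marker genes, all of which carried H3K4me2 in both lists, 57.1 kb in YAP and 85.5 kb in WT in sum. Their covered bases were fewer in YAP at 8 of 8. The 5 macrophage markers summed to 13.3 kb in YAP and 5.2 kb in WT, and 3 of them (Adgre1, Clec4f and Csf1r) had none listed in WT. The 5 cholangiocyte markers summed to 9.0 kb in YAP and 5.1 kb in WT. Among them Spp1 had 3.75 kb in YAP and 0.619 kb in WT, Sox9 had 3.75 and 2.90 kb, Epcam had 1.55 and 1.57 kb, and Krt7 and Krt19 had none in either list. Endothelial markers summed to 7.3 kb in YAP and 3.7 kb in WT, and lymphocyte markers to 5.7 and 2.9 kb. Stellate markers summed to 2.4 kb in YAP and 6.8 kb in WT. Most of the stellate sum lay at Reln (1.52 and 6.38 kb), while Lrat and Col1a1 had more in YAP. In bulk liver, fewer cells of a type and less of the mark per cell cannot be told apart.

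LSD1 was listed within 1 kb of the annotated start of 8 initiation factor genes with a known strand. Printed here are the promoter windows of the 5 with the most bases inside the LSD1 region. Each window runs from 250 bases before the RefSeq start to 50 bases after it (GRCm38.p6, which shares mm10 coordinates), written 5′ to 3′. Capitals mark the bases inside the LSD1 region, which was listed in YAP for the first 4 genes and in WT for Eif3b.

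Eif2b1 (chr5:124579082-124579381, minus strand): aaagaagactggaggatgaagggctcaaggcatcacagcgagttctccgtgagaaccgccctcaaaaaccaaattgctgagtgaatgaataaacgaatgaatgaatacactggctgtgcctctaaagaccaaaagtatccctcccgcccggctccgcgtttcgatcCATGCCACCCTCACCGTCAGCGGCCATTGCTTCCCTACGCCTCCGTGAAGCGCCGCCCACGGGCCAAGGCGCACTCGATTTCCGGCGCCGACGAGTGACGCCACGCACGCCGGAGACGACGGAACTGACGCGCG
Eif2b2 (chr12:85219231-85219530, plus strand): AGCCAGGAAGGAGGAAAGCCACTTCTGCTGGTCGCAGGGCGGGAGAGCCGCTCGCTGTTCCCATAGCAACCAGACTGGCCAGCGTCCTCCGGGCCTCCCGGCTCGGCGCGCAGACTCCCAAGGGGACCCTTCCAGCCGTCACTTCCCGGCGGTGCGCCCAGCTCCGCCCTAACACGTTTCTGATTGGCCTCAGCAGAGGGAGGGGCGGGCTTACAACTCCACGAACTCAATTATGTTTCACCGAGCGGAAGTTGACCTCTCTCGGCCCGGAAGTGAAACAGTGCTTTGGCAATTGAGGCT
Eif2s1 (chr12:78861822-78862121, plus strand): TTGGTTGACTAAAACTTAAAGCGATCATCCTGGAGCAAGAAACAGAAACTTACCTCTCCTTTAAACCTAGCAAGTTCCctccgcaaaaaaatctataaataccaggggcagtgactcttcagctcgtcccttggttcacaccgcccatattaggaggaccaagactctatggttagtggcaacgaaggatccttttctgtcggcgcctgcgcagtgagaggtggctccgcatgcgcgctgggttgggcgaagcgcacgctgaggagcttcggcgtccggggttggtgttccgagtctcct
Eif4e2 (chr1:87213661-87213960, plus strand): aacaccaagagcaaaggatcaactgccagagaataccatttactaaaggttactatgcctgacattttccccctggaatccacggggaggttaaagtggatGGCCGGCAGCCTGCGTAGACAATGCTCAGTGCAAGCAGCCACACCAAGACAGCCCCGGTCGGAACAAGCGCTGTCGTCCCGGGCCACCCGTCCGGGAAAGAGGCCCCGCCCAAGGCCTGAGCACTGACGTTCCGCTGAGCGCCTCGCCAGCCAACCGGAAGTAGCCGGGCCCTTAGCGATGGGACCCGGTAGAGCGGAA
Eif3b (chr5:140419055-140419354, plus strand): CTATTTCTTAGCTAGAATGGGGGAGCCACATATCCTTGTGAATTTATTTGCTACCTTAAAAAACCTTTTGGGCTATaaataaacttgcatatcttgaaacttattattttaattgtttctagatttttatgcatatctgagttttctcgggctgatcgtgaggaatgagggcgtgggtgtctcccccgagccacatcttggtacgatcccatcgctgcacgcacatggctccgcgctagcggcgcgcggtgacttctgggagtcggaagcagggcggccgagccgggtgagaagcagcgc

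The LSD1 region held 134 of the 300 bases at Eif2b1, all 300 at Eif2b2, 78 at Eif2s1, 199 at Eif4e2 and 76 at Eif3b. In the windows not printed it held 13 of 300 bases at Eif3k and 0 at Eif1 and Eif3c. Of the 54 genes, 42 had a RefSeq promoter entry, with a median GC content of 61.0% and 23.5 CpG pairs per window, compared with 56.3% and 13.0 over 17492 protein-coding genes. The genes with no entry were Eif1a, Eif2b3, Eif3e, Eif3h, Eif3i, Eif3j2, Eif4e1b, Eif4e3, Eif4ebp1, Eif4ebp3, Eif4g2 and Eif6. Short motifs were searched on both strands, each on its own, so that matches of different motifs may overlap. The GC box GGGCGG was present in 31 of 42 windows (73.8%), compared with 46.3% of all windows, and the ETS core CCGGAA in 19 (45.2%), compared with 19.1%. The E-box CACGTG was present in 7 (16.7%, compared with 7.91%). The TEAD motif GGAATG, the core bound by the DNA-binding partners of YAP, was present in 5 (11.9%, compared with 13.5%), and of the windows printed it occurs in that of Eif3b. CCAAT and TATAAA were in 13 (31%) and 4 (9.52%) of the 42, compared with 39.2% and 13.3%. GC-rich motifs move with the base composition given above, and their part in these shares was not tested.

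LSD1 sat within 5 kb of 9 of the 54 genes in YAP (16.7%, Wilson 95% interval 9.02% to 28.7%) and of 4 in WT (7.41%, 2.92% to 17.6%). Over all protein-coding genes the shares were 11.1% and 5.90%. Most initiation factor genes carry H3K4me2, and among the 12223 genes with H3K4me2 at a boundary in both lists the shares were 17.3% and 9.24%, and 9 and 4 of the 50 initiation factor genes that meet the same condition had a site in YAP and WT. By gene, 8 had LSD1 in YAP only (8.08% of all genes did), 3 in WT only (2.86%) and 1 in both (3.05%). At the boundaries themselves, within 1 kb, LSD1 was listed in YAP only at 6 genes (4.38%), in WT only at 3 (1.73%) and in both at none (1.34%). The intervals cover counting only.

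Among the genes with LSD1 in YAP only, Eif2s1 encodes the alpha subunit of eIF2, the one that the stress kinases phosphorylate. Its LSD1 region (chromosome 12, 78861500 to 78861899) was centred 373 bp upstream of the start, with an authors' score of 1000, the maximum, which 805 regions of the YAP list reach. Eif2b1 and Eif2b2 encode regulatory subunits of eIF2B, the exchange factor. Their regions, with scores of 956 and 1000, were centred 116 bp downstream and 132 bp upstream of the start. Eif4e2, a cap-binding relative of eIF4E that does not join eIF4F, had a region centred 50 bp downstream with a score of 577, and Eif3k, an eIF3 subunit, 1 at 237 bp downstream with a score of 839. At Eif6, whose product keeps the large ribosomal subunit from joining too early, the region lay 168 bp inside the lower-coordinate boundary with a score of 605. Other genes lie within 1 kb of some of these regions: Gtf2h3 at Eif2b1, Atp6v1d at Eif2s1, Map4k1 at Eif3k and BC029722 at Eif6. The other YAP-only sites lay away from the boundaries. At Eif3h the region was centred 1257 bp beyond the upper-coordinate boundary, and at Eif2a 3911 bp beyond it.

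The 3 genes with LSD1 in WT only were Eif1, which encodes a scanning factor, and the eIF3 subunit genes Eif3b and Eif3c. Their regions were centred 570, 373 and 459 bp upstream of the start, with scores of 701, 783 and 657. Eif1a, a scanning factor gene, was the 1 member with LSD1 in both lists, inside the gene, with a score of 1000 in each list. A second Eif1a region, with a score of 555, was listed in WT only. When the YAP list was limited to its 1500 highest-scoring regions, the length of the WT list, 5 genes had LSD1 in YAP only and 3 in WT only, and over all genes 871 and 851. With the lists as deposited, all genes gave 1769 and 625. Eif2a, Eif4e2 and Eif6 were the members that then no longer had a site.

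**Figure D1:**
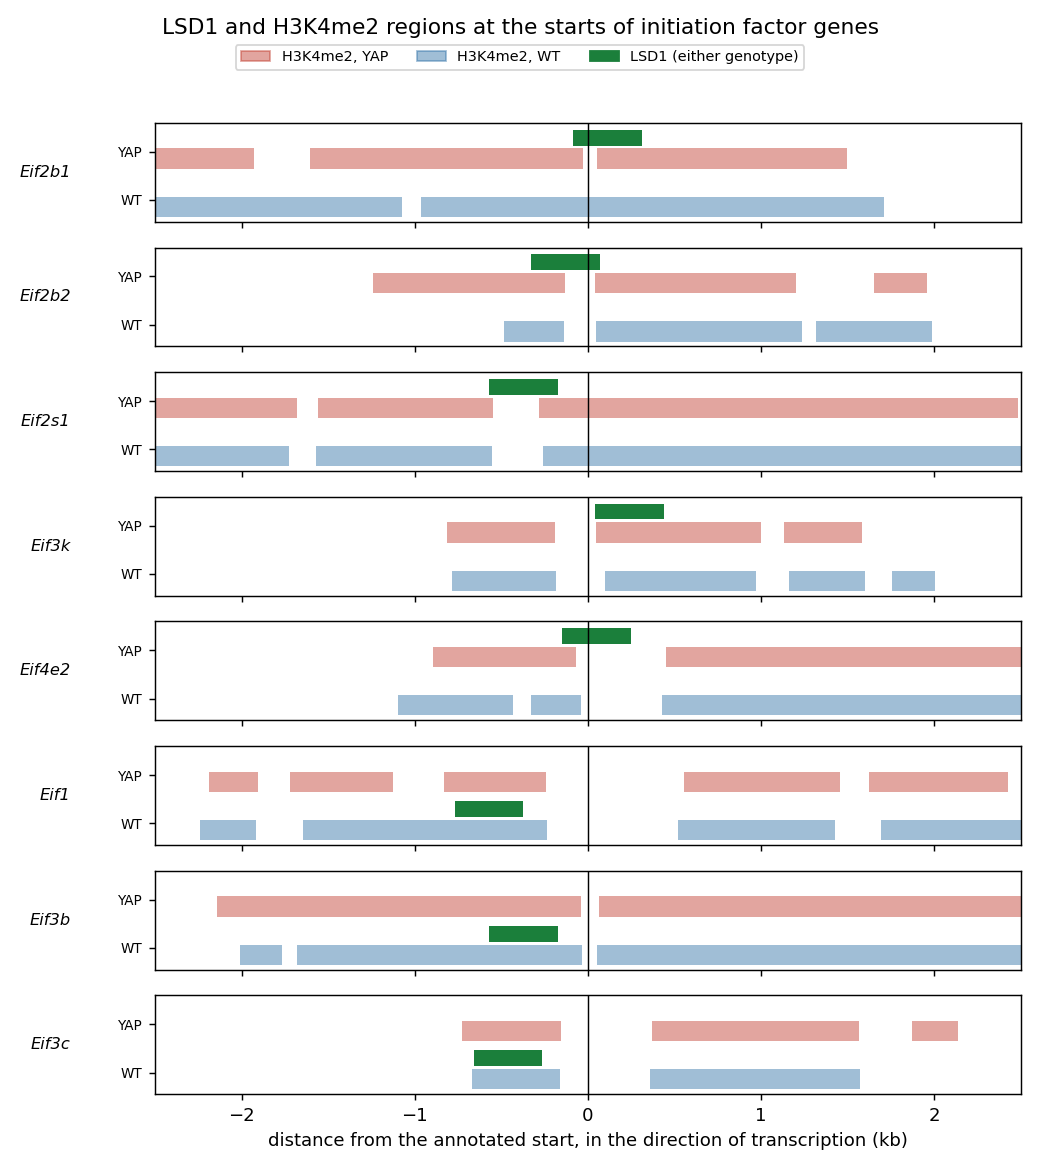
Regions within 2.5 kb of the annotated start of 8 initiation factor genes, oriented by transcription (x axis, kb), with YAP above WT in each panel: H3K4me2 in red (YAP) or blue (WT) and LSD1 in green. The 3 WT-only LSD1 regions lie wholly on H3K4me2 upstream of the start, whereas the 5 YAP-only regions run partly outside the H3K4me2 of the YAP list, by few bases at Eif3k.

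The LSD1 regions differed in how they lay on H3K4me2. Each YAP region is 400 bp wide. H3K4me2 covered 391 of these bases in YAP and 337 in WT at Eif3k, and 323 in YAP and 400 in WT at Eif2b1. It covered 226 in YAP and 217 in WT at Eif2b2, and 138 and 107 at Eif2s1. At Eif4e2 it covered 83 in YAP and 112 in WT, and at Eif6 16 in YAP and none in WT. At the 3 genes with LSD1 in WT only, H3K4me2 covered all 396 bp of the LSD1 region in the YAP list and in the WT list. All 3 WT-only sites thus lay on H3K4me2 that both lists hold. Over the whole lists 64.9% of LSD1 regions in YAP and 72.3% in WT touched H3K4me2, and at the initiation factor genes 7 of 9 and 4 of 5 did.

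H3K4me2 was listed at the boundaries of the same genes in both genotypes. A region within 1 kb of either annotated boundary was listed at 50 of the 54 genes in both lists, and at none in YAP only or WT only. Over all genes 55.8% had such a region in both, 2.31% in YAP only and 1.59% in WT only. Of the remaining genes, Eif4e3 and Eif4g3 carried H3K4me2 inside the gene only. At Eif4g3 it lay within 1 kb of a listed RefSeq start in both lists. Eif3j2 and Eif4a3l1 had no H3K4me2 in either list. Both have a close relative among the members (Eif3j1 and Eif4a3), and whether short reads could be assigned between them was not tested.

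**Figure D2:**
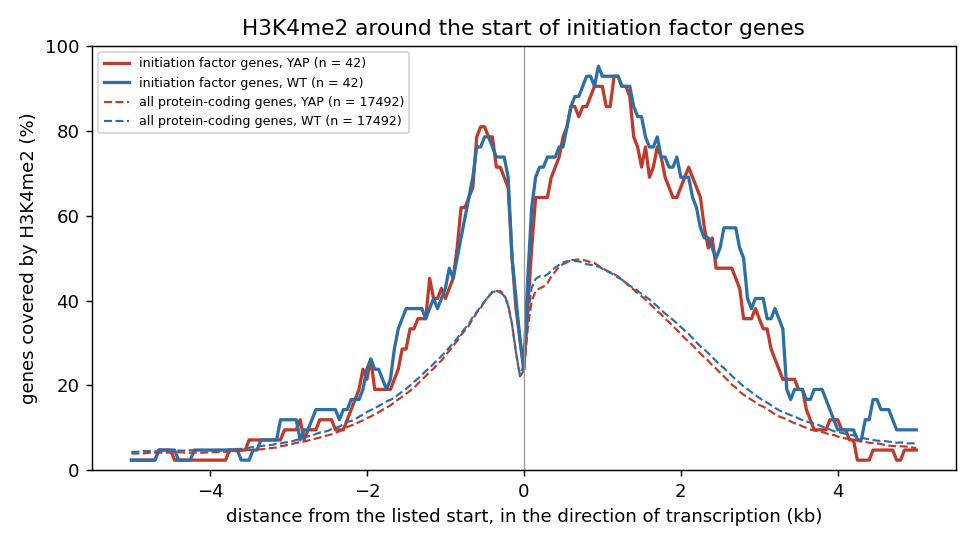
Share of genes covered by H3K4me2 (y axis, %) at each distance from the listed start (x axis, kb, in the direction of transcription), for 42 initiation factor genes (solid) and 17492 protein-coding genes (dashed), in YAP (red) and WT (blue). Both genotypes show a narrow gap at the start between a lower upstream and a higher downstream peak.

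At most of the genes the mark lay on both flanks of the start and not on the start itself. At 550 bp upstream of the listed start 81.0% of the 42 genes with an entry were covered in YAP, and at 500 bp upstream 78.6% in WT. At the start itself 23.8% were covered in both genotypes. Downstream the share reached 92.9% in YAP, at 1150 bp, and 95.2% in WT, at 950 bp. Over all genes with an entry the start was covered at a like share, 23.4% in YAP and 24.9% in WT, but the flanks reached only 42.2% and 42.1% upstream and 49.7% and 49.3% downstream. H3K4me2 lay within 1 kb of a listed start at 41 of the 42 genes in each list, compared with 59.6% of all genes in YAP and 58.7% in WT, and Eif4a3l1 was the exception. An uncovered gap over the start, with H3K4me2 on both sides, was found at 25 of the 41 genes in YAP and 26 in WT, compared with 46.8% and 43.8% of all genes with H3K4me2 there. It was found in both lists at 24 of the 41, compared with 38.5% of the 10055 genes with H3K4me2 near the start in both lists. At these 24 genes the median gap was 336 bp in YAP and 304.5 bp in WT, wider in YAP at 16 and narrower at 8, with a median difference of 11 bp. Over all 3875 genes with a gap in both lists the medians were 305 and 255 bp, and the gap was wider in YAP at 2469. Among the members, Eif4g3, a scaffold gene, had gaps of 651 bp in YAP and 117 bp in WT, Eif4b, a helicase cofactor gene, 721 and 342 bp, and Eif2a 783 and 413 bp.

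H3K4me2-covered bases, counted from 5 kb before each gene to 5 kb after it, differed little between genotypes for most initiation factor genes. The 54 genes held 213.1 kb in YAP and 226.4 kb in WT, or 94.1%, and all protein-coding genes 94.0%. H3K4me2 was present there at 52 genes in both lists (64.1% of all genes) and at none in YAP only (2.58%) or in WT only (1.44%). With 500 bases added to each value, the log2 ratio of YAP over WT had a median of -0.067 (quartiles -0.19 and 0.11). Over 14915 genes it was -0.062 (-0.25 and 0.14). Covered bases were more in YAP at 20 of the 52 (40.8% of all genes), fewer at 31 (59.1%) and equal at 1. None passed 1.5-fold more (7.68% of all genes did) and 2 passed 1.5-fold fewer (7.25%). Among genes with H3K4me2 at a boundary in both lists, 3.85% passed 1.5-fold more and 5.30% 1.5-fold fewer, and of the 50 members among them 0 and 2 did. These counts rest on 1 list per genotype and have no replicate check.

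**Figure D3:**
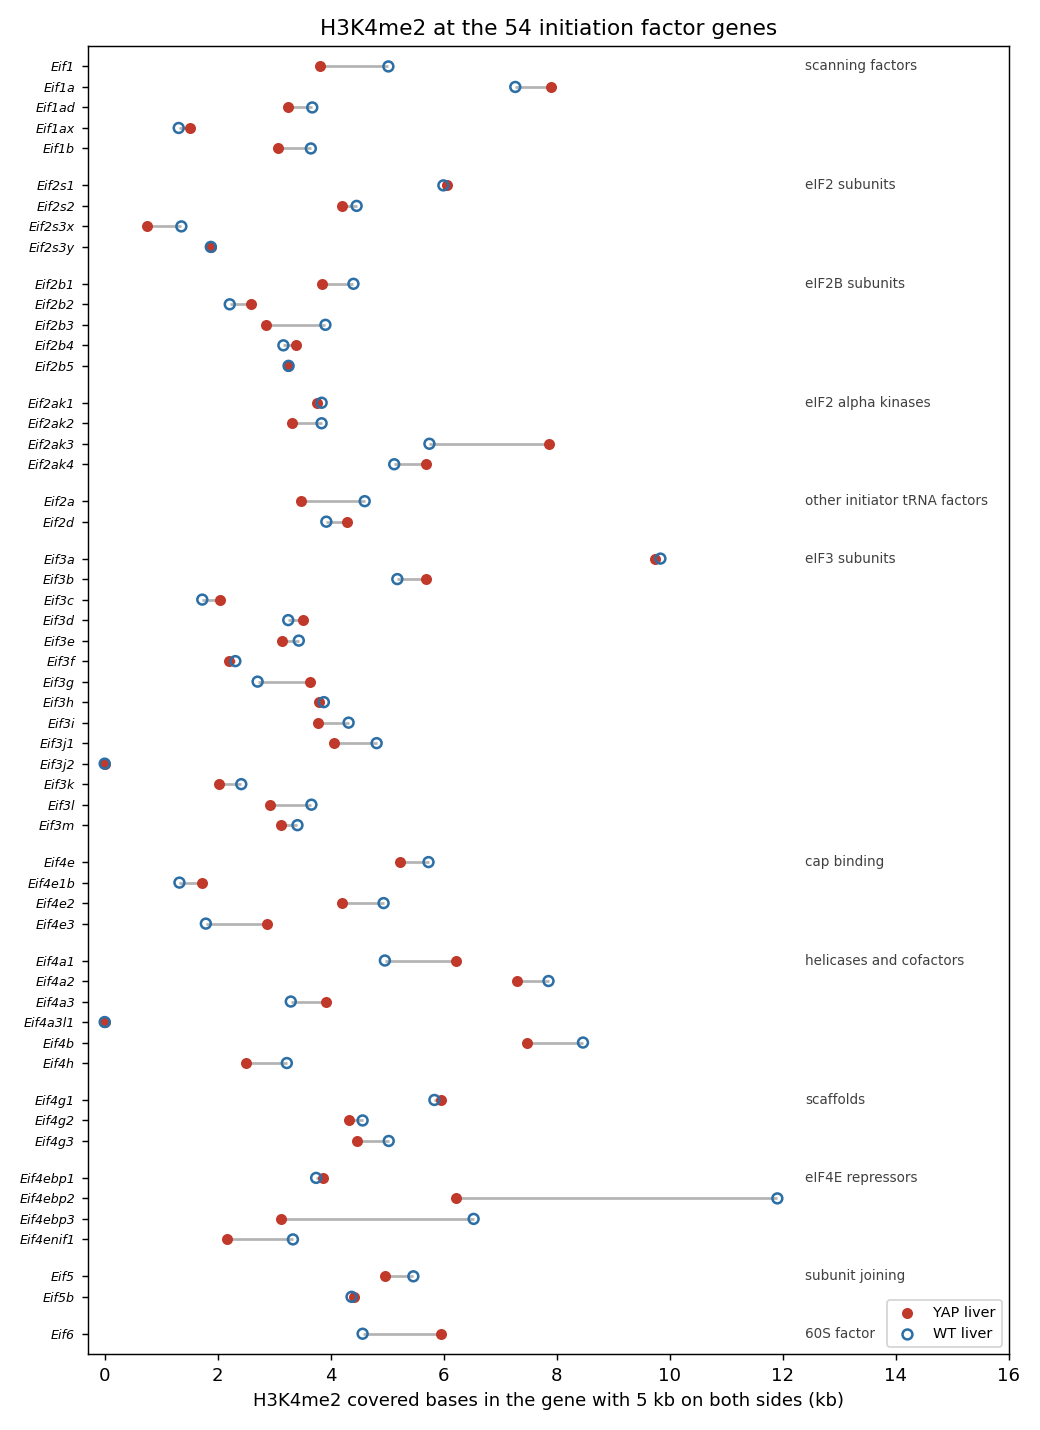
H3K4me2-covered bases of each of the 54 genes with 5 kb on both sides (x axis, kb), in YAP (filled red) and WT (open blue), grouped by role. Most pairs lie close together, and Eif4ebp2 (6.21 kb in YAP and 11.9 kb in WT) and Eif4ebp3 (3.12 and 6.53 kb) stand farthest apart.

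By role, the scanning factor genes, with Eif1ad grouped among them, had 1.51 to 7.90 kb in YAP and 1.31 to 7.27 kb in WT. The median log2 ratio over these 5 genes was -0.16, which is the value of Eif1ad itself. Ratios were 0.11 at Eif1a, 0.15 at Eif1ax and -0.22 at Eif1b. Eif1, with LSD1 in WT only, had 3.82 kb in YAP and 5.02 kb in WT, a ratio of -0.36. The direction turned without flanks, where the ratio was 0.046, and within 2 kb of the start it was -0.069. In the higher-scoring 50% of each list it was -0.66, past 1.5-fold fewer. Eif1a had 7.90 kb in YAP and 7.27 kb in WT. The eIF2 subunit genes had a median of -0.039. Eif2s1 had 6.06 kb in YAP and 5.99 kb in WT, a log2 ratio of 0.01 beside an LSD1 site in YAP only. The eIF2B genes had a median of -0.002. Eif2b5, its catalytic subunit gene, had 3.25 kb in both, while Eif2b3, the other catalytic subunit gene, had 2.85 kb in YAP and 3.91 kb in WT, a ratio of -0.39, or -0.051 after joining regions less than 1 kb apart. Among eIF2B genes with an LSD1 site in YAP, Eif2b1 had 3.85 kb in YAP and 4.40 kb in WT, and Eif2b2 2.58 and 2.21 kb. Their differences ran in opposite directions. Eif2a, an alternative initiator tRNA factor gene, had 3.47 kb in YAP and 4.60 kb in WT, a ratio of -0.36, and Eif2d, which encodes another such factor, 4.28 and 3.92 kb.

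The eIF2 kinase genes had a median of 0.056. Eif2ak3, which encodes PERK, the kinase of endoplasmic reticulum stress, had 7.86 kb in YAP and 5.75 kb in WT, a log2 ratio of 0.42. Within the higher-scoring 50% of each list that ratio was -0.22, and within 2 kb of the start -0.10. Eif2ak4, the amino acid sensor GCN2, had 5.68 kb in YAP and 5.12 kb in WT. Eif2ak1, the haem-regulated kinase, had 3.76 and 3.84 kb, and Eif2ak2, the kinase PKR that senses double-stranded RNA, 3.31 and 3.84 kb.

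Of the 14 eIF3 genes, 13 had covered bases, with a median of -0.062, 4 with more in YAP and 9 with fewer. Their sums were 49.6 kb in YAP and 50.9 kb in WT. Eif3a, which encodes the largest subunit, had the most, 9.74 kb in YAP and 9.83 kb in WT. The WT-only LSD1 genes Eif3b and Eif3c had 5.68 and 2.04 kb in YAP and 5.18 and 1.73 kb in WT. Eif3k, with LSD1 in YAP only, had 2.03 kb in YAP and 2.42 kb in WT. Eif3g had 3.63 kb in YAP and 2.71 kb in WT, a ratio of 0.36, or 0.07 without bases at other genes. Its neighbour Ppan lies within the window.

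The cap-binding genes included Eif4e, with 5.22 kb in YAP and 5.73 kb in WT, and Eif4e3, an eIF4E paralogue gene, with 2.86 and 1.79 kb. The log2 ratio of Eif4e3, 0.55, was the highest of all members and short of 1.5-fold. Eif4e1b, another paralogue gene, had 1.72 kb in YAP and 1.32 kb in WT, but its 1 region in each list lay outside the gene, at Tspan17, and without bases at other genes no H3K4me2 was left in either list. Eif4e2, with its LSD1 site in YAP, had 4.21 kb in YAP and 4.94 kb in WT. The helicase gene Eif4a2 and its cofactor gene Eif4b had 7.29 and 7.48 kb in YAP and 7.85 and 8.46 kb in WT. Eif4a3, whose helicase belongs to the exon junction complex, had 3.92 kb in YAP and 3.29 kb in WT, and Eif4h, another helicase cofactor gene, 2.495 and 3.22 kb. The Eif4a3 ratio of 0.22 turned to -0.038 without flanks and -0.063 in the higher-scoring 50% of each list. The Eif4h ratio of -0.31 was -0.028 in that 50% and with lists of equal length. The scaffold genes Eif4g1, Eif4g2 and Eif4g3 had ratios between -0.15 and 0.03. Eif5, whose product triggers GTP hydrolysis on eIF2, had 4.96 kb in YAP and 5.46 kb in WT, and Eif5b, which joins the large subunit, 4.41 and 4.37 kb. Eif6 had 5.95 kb in YAP and 4.56 kb in WT, a ratio of 0.35, or 0.13 without bases at other genes.

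The eIF4E repressor genes had the lowest median log2 ratio of the roles, -0.70 over 4 genes, and sums of 15.4 kb in YAP and 25.5 kb in WT. Eif4ebp2, which encodes a 4E-binding protein, had 6.21 kb in YAP and 11.9 kb in WT, a ratio of -0.89. Eif4ebp3, another 4E-binding protein gene, had 3.12 kb in YAP and 6.53 kb in WT, a ratio of -0.96. These were the 2 genes past 1.5-fold. Eif4enif1, which encodes the eIF4E transporter 4E-T, had 2.17 kb in YAP and 3.33 kb in WT, a ratio of -0.52. Its ratio with 100 bases added was -0.60, past 1.5-fold. In the higher-scoring 50% of each list no H3K4me2 was left in its window in either list, so the ratio there was 0. Within 2 kb of the start of Eif4enif1 the ratio was -0.34. Eif4ebp1, the remaining 4E-binding protein gene, had 3.87 kb in YAP and 3.74 kb in WT, so the group was not uniform.

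**Figure D4:**
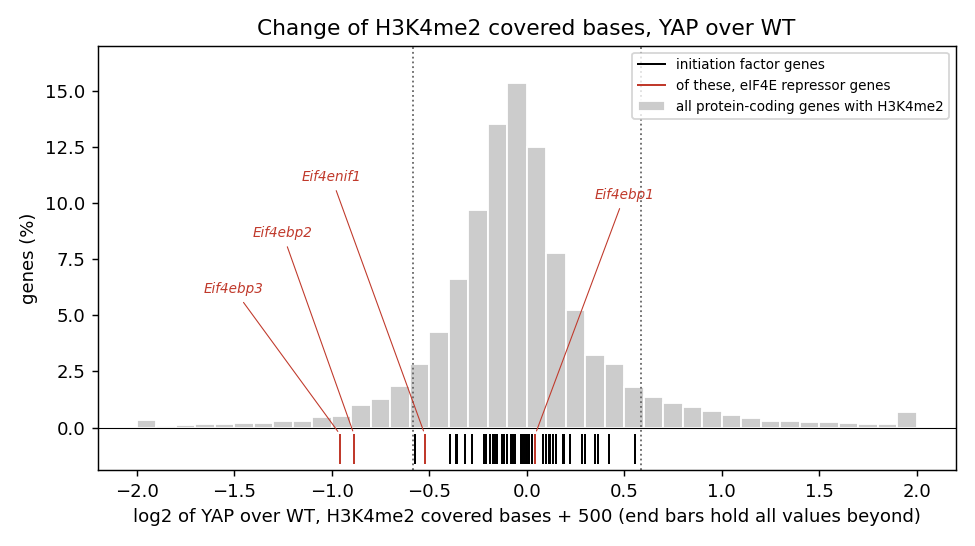
Histogram of the log2 ratio of H3K4me2-covered bases, YAP over WT, for 14915 protein-coding genes (grey bars, % of genes per 0.1), with a tick below for each of the 52 initiation factor genes and red ticks for eIF4E repressor genes. Dotted lines mark 1.5-fold. Eif4ebp2 and Eif4ebp3 lie beyond the lower line and no member lies beyond the upper.

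At Eif4ebp2 the difference lay away from the promoter. Within 2 kb of the start the ratio was -0.015. Inside the gene H3K4me2 covered 6.14 kb in YAP and 9.51 kb in WT, and beyond its lower-coordinate boundary, on the side of Nodal, 0.078 and 2.39 kb. Within the window the YAP list held 10 regions with a median width of 395 bp, and the WT list 5 regions with a median of 2209 bp. The YAP list thus held more and shorter regions. After joining regions less than 1 kb apart, the ratio was -0.66, still past 1.5-fold. At Eif4ebp3 the gene itself had 0.848 kb in YAP and 2.24 kb in WT, and beyond its lower-coordinate boundary none was listed in YAP and 1.44 kb in WT. On the other side, at the neighbour Sra1, the values were 2.27 and 2.85 kb. Without bases at other genes the Eif4ebp3 ratio was -1.63.

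**Figure D5:**
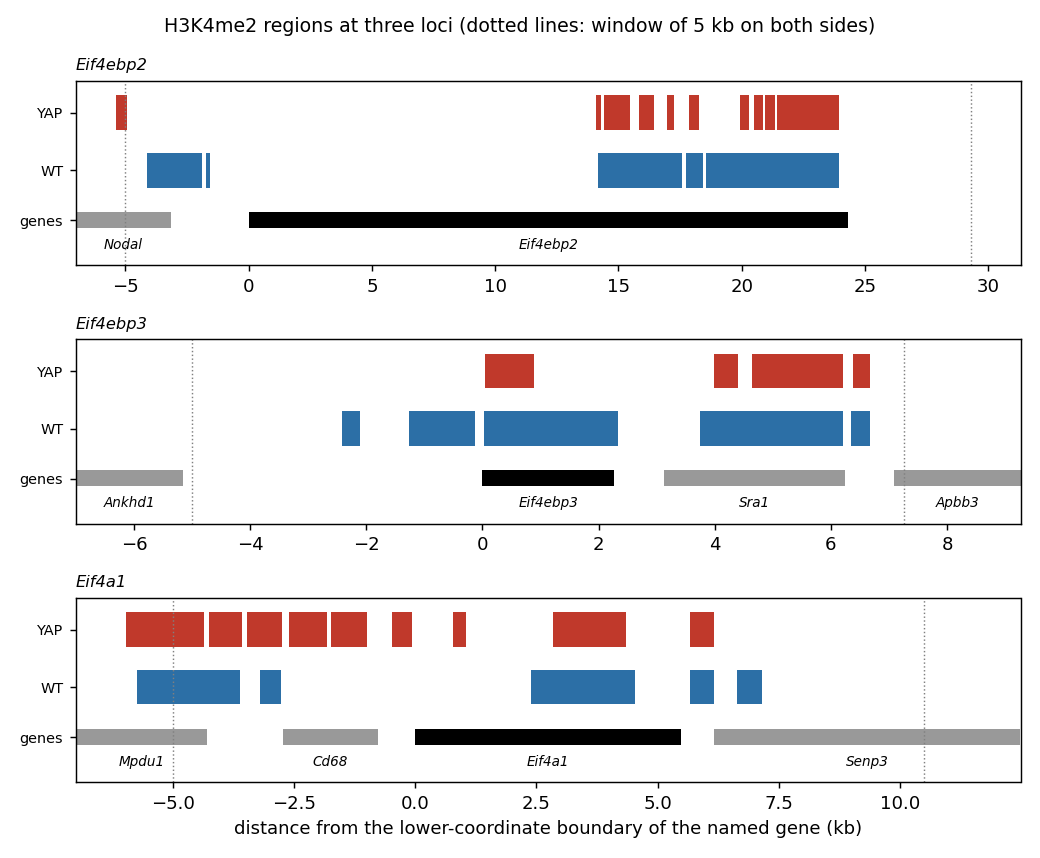
H3K4me2 regions of YAP (red, above) and WT (blue, below) at Eif4ebp2, Eif4ebp3 and Eif4a1, by distance from the lower-coordinate boundary of the named gene (x axis, kb), with protein-coding genes beneath. The long WT region inside Eif4ebp2 is divided in YAP, and the WT regions at and before Eif4ebp3 are shorter or missing in YAP. Beside Eif4a1, YAP holds more H3K4me2 on the side of Cd68.

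Hepatocyte markers differed in the same direction as Eif4ebp2 and Eif4ebp3. The 8 marker genes had a median log2 ratio of -0.44, and Cps1, a urea cycle enzyme gene, had 7.75 kb in YAP and 15.5 kb in WT. Their part in the values of the repressor genes was not tested.

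Eif4a1, the main eIF4A helicase gene, had 6.21 kb in YAP and 4.96 kb in WT, but the additional bases in YAP lay outside the gene. Beyond its lower-coordinate boundary, where the macrophage gene Cd68 and part of Mpdu1 lie, H3K4me2 covered 3.97 kb in YAP and 1.81 kb in WT. Inside Eif4a1 it covered 1.76 kb in YAP and 2.15 kb in WT. The log2 ratio was 0.30 with the flanks, -0.23 without bases at other genes and -0.47 within 2 kb of the start. The macrophage markers as a list had more covered bases in YAP at 5 of 5, and the endothelial markers at 4 of 5. Cd68 is among the macrophage markers, and its window overlaps that of Eif4a1, so its value is not separate from those above. In all, 37 of the 54 windows reached another protein-coding gene.

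H3K4me1 was listed within 5 kb of 10 of the 54 genes in YAP (18.5%) and 11 in WT (20.4%), compared with 11.3% and 9.50% of all genes, and with 18.3% and 15.6% of genes with H3K4me2 at a boundary in both lists. It was in both lists at 8 genes (6.33% of all genes), in YAP only at 2 (4.98%), Eif2a and Eif3m, and in WT only at 3 (3.17%), Eif2s1, Eif4b and Eif4h. The most regions were at Eif4ebp2, with 5 in YAP and 6 in WT, and at Eif4e, with 4 in YAP and 5 in WT. Eif3a had 4 in YAP and 2 in WT. At Eif4ebp2, 3 of the 5 YAP regions overlapped a WT region, all 3 inside the gene. Its boundary region in WT was the 1 H3K4me1 region within 1 kb of a member's boundary (WT only at 0.320% of all genes). Scores of the members' H3K4me1 regions lay between 26 and 73, on both sides of the list medians of 41 in YAP and 40 in WT.

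Other genes of translation were counted in the same way, against the same 7.68% more and 7.25% fewer over all genes. Of 13 elongation and termination genes, none had covered bases past 1.5-fold more and 1 past 1.5-fold fewer, the termination factor gene Gspt1 (3.87 kb in YAP and 6.35 kb in WT), with a list median of -0.004. Of 14 genes of mTORC1 and eIF4F control, 2 were past 1.5-fold fewer and none more, with a median of -0.14. These were Deptor, an mTOR inhibitor gene (8.81 kb in YAP and 14.5 kb in WT), and Pdcd4, whose product inhibits eIF4A (4.45 and 7.10 kb). Of 8 genes of the integrated stress response, 1 was past 1.5-fold fewer, Atf4, the transcription factor gene translated when eIF2 is phosphorylated (4.52 and 7.34 kb), with a median of -0.061. None of 9 other initiation helper genes was past it in either direction, with a median of -0.064. Over these 44 genes LSD1 within 5 kb was found in YAP only at 7 (15.9%, and 8.08% of all genes) and in WT only at 5 (11.4%, and 2.86%). The YAP-only genes were Eef1d, Eefsec, Etf1, Mknk2, Mtor, Pdcd4 and Atf5. The WT-only genes were Abce1, Eef1b2, Mlst8, Gcn1 and Ppp1r15b. All of the 44 genes but Eef1a2 had H3K4me2 at a boundary in both lists. Of the 12223 protein-coding genes that did, 1529 had LSD1 within 5 kb in YAP only and 544 in WT only.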

How the data were processed

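The deposited lists of enriched regions (mm10) were used as they stand, 1 for each antibody and genotype. Per the labels, 1 list is named for both replicates. Chromatin was digested with micrococcal nuclease and libraries were amplified by PCR, per the labels' protocols, and the enzyme's preference for linker DNA can shape region edges. Per the submitters' processing notes, reads were handled with deepTools 3.3.0, bedtools 2.26.0, Picard 1.126, SAMtools 1.7, BWA and Trimmomatic 0.39, in an order the notes leave out. How regions were called, and whether inputs were used, is not given in the sources used here. For the histone marks, the authors' score matched 10 times the deposited −log10 p-value, without decimals, in every region, and what it means for LSD1 is unstated. It and the deposited signal were used only to rank regions within a list.

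Regions of a list that overlapped or touched were joined, and overlap meant at least 1 bp. Gene bounds came from a RefSeq table of GRCm38.p6, and strand and start from its promoter table. Covered bases, boundary regions (1 kb) and sites (5 kb) were computed for all protein-coding genes with Python 3.11.15, numpy 2.4.6 and pandas 2.3.3. Interval arithmetic was checked against bedtools 2.31.1 on simulated regions. No test was made, since nothing measures the spread between replicates. Members and lists were chosen with earlier results of these data known. By the rule for names, members with a differing LSD1 or H3K4me1 state, no H3K4me2, or the 8 highest or 8 lowest ratios are named, with examples per role. Start gaps, start coverage and motif shares were added after the data were seen.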

Additional observations from a re-analysis of the deposited data

How the results depend on the processing

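The median log2 ratio of H3K4me2-covered bases stayed below 0 in all alternatives tried. It was -0.047 with 2000 bases added, -0.093 without flanks, -0.045 with flanks of 1 kb, -0.063 in the higher-scoring 50% of each list, -0.028 with lists of equal length, -0.047 with regions within 1 kb joined and -0.062 for initiation factor subunits alone. In alternatives chosen after seeing the data it was -0.078 without bases at other genes and -0.036 within 2 kb of a start. Genes past 1.5-fold numbered 1 more and 4 fewer in YAP with 100 bases added, and 1 more and 3 fewer with regions joined. In the higher-scoring 50% of each list 3 were fewer. Subunits alone gave 0 fewer by construction, since that set leaves out Eif4ebp2 and Eif4ebp3. Within 2 kb of a start 0 were fewer, and Eif4ebp3, which has no listed start, was not counted there. At 2-fold there were 0 fewer. Among higher-scoring regions 1 gene had boundary H3K4me2 in WT only. LSD1 in YAP only was at 5 genes with equal lists, in the higher-scoring 50% and, an alternative added later, inside the gene bounds, where 0 had it in WT only. In the higher-scoring 50% 1 gene had it in WT only. Within 50 kb, 3 genes had it in both and 6 in WT only, and at boundaries 0 in both. H3K4me1 was in YAP only at 1 gene inside genes and at 5 within 50 kb, and in both at 5 in the higher-scoring 50%. LSD1 regions covered by H3K4me2 over at least 50% of their length numbered 4 in YAP. Apart from the construction of each alternative, the cause was not tested. No paired analysis was possible because each list combines both replicates, and no replicate could be left out for the same reason. Depth is unknown, so a region that is not listed may be missing for want of reads.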

Other observations

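Eif2s3x and Eif2s3y encode the eIF2 gamma subunit from the X and the Y chromosome. Eif2s3y carried 1.88 kb of H3K4me2 in YAP and 1.88 kb in WT. The YAP list held 5 regions there and the WT list 2, and the listed start was covered in YAP and not in WT. Eif2s3x had 0.749 kb in YAP and 1.36 kb in WT, a log2 ratio of -0.57, the third lowest of the members.

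Regions were more numerous and shorter in YAP over these genes as a whole. Within 5 kb of the 54 genes the YAP list held 207 H3K4me2 regions with a median width of 756 bp, and the WT list 191 regions with a median of 918 bp. As whole lists, YAP held fewer regions than WT, 51676 and 54219, which covered 49.0 and 52.2 Mb. Counts and median widths near all genes were not computed, so it is not known whether this is particular to these genes. Members differed in the number and width of their regions. Eif4enif1 had 5 regions with a median of 471 bp in YAP and 2 with a median of 1665.5 bp in WT, whereas Eif2ak3 had 8 with a median of 957.5 bp in YAP and 7 with a median of 559 bp in WT. At Eif4a1 the medians were 722 bp in YAP and 508 bp in WT, and Eif4ebp3 had 4 regions in YAP and 5 in WT.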
